A study of Mus musculus with 18 samples.

Results

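NRF2, the transcription factor encoded by *Nfe2l2*, its repressor *Keap1* and 7 of the best known NRF2 target genes (*Nqo1*, *Gclc*, *Gclm*, *Txnrd1*, *Srxn1*, *Hmox1* and *Gsr*) were examined in mouse livers with and without *Gpr180*. The genes were chosen by symbol, as 9 of the 23328 gene symbols that the deposited tables list with a usable value in every library. Each of the 9 had a single entry, none had a failed estimate, and all 9 passed the filter of a mean of at least 1 FPKM that left 10835 genes for testing. FPKM is the number of fragments of a gene scaled by the length of its transcript and by the mapped fragments of the library, so levels of different genes can be set side by side within a library.

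The animals were male mice, 20 weeks old, that received a high-fat diet (HFD). The wild-type (WT) group and the *Gpr180*KO group held 9 livers each, with 1 poly(A) RNA library per liver. *Gpr180*KO mice carry a CRISPR/Cas9 deletion of an exon in every cell of the body, on a C57BL/6J background, so a difference in the liver may start in any tissue. GPR180 is an integral membrane protein. The purpose of the comparison was to find which liver transcripts depend on it under HFD. *Gpr180* itself had 6.79 ± 1.99 FPKM in WT (mean ± SD, n = 9) and 1.60 ± 0.37 in *Gpr180*KO livers (n = 9). All 9 *Gpr180*KO livers lay below the lowest WT liver for it, and the log2 difference was -2.0 (SE 0.18, limma adjusted p = 4.74e-06). The RNA that remains can come from the exons outside the deletion.

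NRF2 is held in the cytosol by KEAP1, which hands it to a ubiquitin ligase for degradation. Oxidants and electrophiles modify cysteines of KEAP1, NRF2 then escapes, enters the nucleus, pairs with a small MAF protein and binds antioxidant response elements near genes for glutathione synthesis, thiol reduction and detoxification. In the liver this pathway is known for its part in the defence against drugs, toxins and the oxidative load of a fatty diet. NRF2 is controlled largely at the level of protein stability, so the amount of *Nfe2l2* RNA is not a measure of NRF2 activity, and neither protein was measured in these data.

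The core of the antioxidant response element is written TGACNNNGC, and it was searched on both strands of RefSeq windows of GRCm38.p6 that run from 250 bases before to 50 bases after a start site. Such windows were held for *Nfe2l2*, *Keap1*, *Nqo1*, *Gclm*, *Srxn1* and *Txnrd1*, the last with 3 start sites. The matches before a start site are shown with 10 bases on either side because they place the letters that NRF2 is known to bind next to the genes measured here, and capitals mark the match on the strand of the gene.
Nfe2l2, chr2:75704885-75704913, minus strand: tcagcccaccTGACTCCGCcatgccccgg
Gclm, chr3:122245413-122245441, plus strand: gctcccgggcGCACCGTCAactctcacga
Txnrd1, chr10:82859104-82859132, plus strand: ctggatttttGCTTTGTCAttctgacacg
The *Nfe2l2* match lay 240 to 232 bases before the start site, the *Gclm* match 134 to 126 bases before it on the opposite strand, and the *Txnrd1* match 92 to 84 bases before the second of its starts, also on the opposite strand. *Srxn1* had its match behind the start site, at bases 28 to 36. The *Keap1* and *Nqo1* windows held no match. Of 32851 such windows, 12.39% held the core, so a match by itself sets a gene little apart. The related AP-1 motif TGANTCA, which reads the same on both strands, occurred in 7.808% of windows, and the *Srxn1* window held it at 2 places, neither of which overlaps the core. They are shown because *Srxn1* had the most negative log2 difference between *Gpr180*KO and WT of the 9 genes, a choice made from these same data. A link between these matches and that difference was not tested.
Srxn1, chr2:152105412-152105438, plus strand: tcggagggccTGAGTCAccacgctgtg
Srxn1, chr2:152105469-152105495, plus strand: aaattcacccTGAGTCAgcggccgggc
A match describes the letters of the window only. Binding was not measured.

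The livers expressed all 9 genes, at levels that spanned more than an order of magnitude. *Gclc*, the catalytic subunit of glutamate-cysteine ligase and the rate-limiting enzyme of glutathione synthesis, had the highest level, with a mean of 162.9 FPKM over the 18 livers. It was followed by *Gclm*, the modifier subunit of the same enzyme, with 61.03 FPKM, by *Nfe2l2* with 47.24, *Txnrd1* with 41.68, *Srxn1* with 26.48, *Hmox1* with 23.2, *Gsr* with 22.38, *Keap1* with 15.69 and *Nqo1* with 6.848 FPKM. *Gclc* exceeded *Gclm* in all 18 livers, *Gsr* exceeded *Keap1* in all 18, and *Keap1* exceeded *Nqo1* in all 18. *Hmox1* and *Gsr* could not be ordered, since *Hmox1* was the higher of the pair in 9 of 18 livers. *Srxn1* exceeded *Hmox1* in 8 of 9 WT livers, all but WThfd134, and in 4 of 9 *Gpr180*KO livers. Those 4 were KO319HFD, KO320HFD, KO321HFD and KO322HFD, which share a form of sample title described below. In that form *Srxn1* was the higher in every liver of both genotypes.

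All 9 genes had a lower mean FPKM in *Gpr180*KO than in WT livers (8 of 9 after median-of-ratios scaling, where *Keap1* turned), but none of the 9 passed the test across all genes, for which limma was fitted to log2(FPKM + 0.1), p-values were adjusted after Benjamini and Hochberg, and an adjusted p under 0.05 was called. Of all 10835 genes tested, 4.28% were called lower and 0.452% higher in *Gpr180*KO livers. *Nfe2l2*, *Nqo1*, *Srxn1* and *Gsr* had an unadjusted p under 0.05, against 19.6% of all genes tested that did so with a lower value. A lower mean was also the rule among all genes, at 76.9%. The median log2 difference of the 9 genes was -0.25, and that of all genes tested was -0.13. Since FPKM values carry no further scaling between libraries, every difference was also computed after median-of-ratios scaling, which sets the typical gene of each library to the same level. It moved the median of all genes from -0.13 to 0.02 and that of the 9 genes to -0.10. After it, 8 of the 9 genes kept a lower mean, against 44.9% of all genes, and again 0 of the 9 were called, against 1.36% of all genes called lower.

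The sample titles come in a pair of forms that the labels do not explain. The first form puts the number before HFD (W317HFD, KO319HFD) and the second puts hfd before the number (WThfd131, KOhfd51). Each genotype has 4 livers of the first form and 5 of the second, so genotype can be compared with the title form as a block. With the block, *Nfe2l2*, *Nqo1* and *Srxn1* were called lower, 3 of 9 genes, while 9.52% of all genes tested were. With both the block and median-of-ratios scaling only *Srxn1* was called of the 9, and 3.06% of all genes were called lower. The same 3 genes were called without the block when the WT liver WThfd157 was left out (limma adjusted p = 0.0411 for *Nfe2l2*, 0.0305 for *Nqo1* and 0.031 for *Srxn1*), a setting that called 7.79% of all genes lower, and leaving out any other single library called none.

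**Figure D1:**
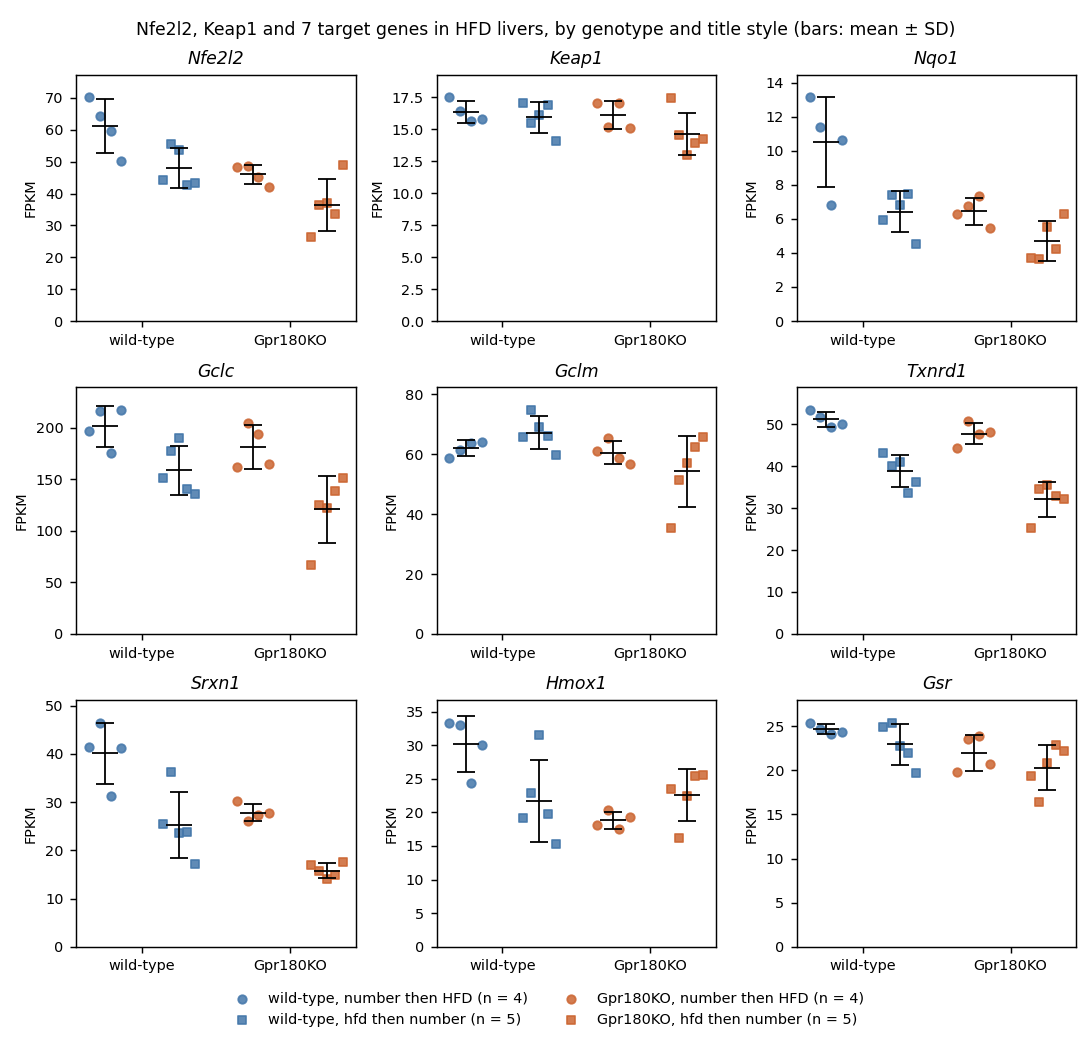
FPKM of each gene (y axis, from 0) in each of 18 HFD livers, 1 point per liver, split by genotype (colour) and form of the sample title (circles, number then HFD, n = 4 per genotype; squares, hfd then number, n = 5 per genotype), with the mean ± SD of each set. *Srxn1*, *Nqo1* and *Nfe2l2* sit lower in *Gpr180*KO livers within both forms, *Txnrd1* separates the forms, and the genotypes of *Hmox1* lie apart in the first form and overlap in the second.

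*Nfe2l2* in WT livers had a lowest value of 42.6, a median of 53.7 and a highest value of 70.3 FPKM, and in *Gpr180*KO livers 26.4, 42.1 and 49.1 FPKM. The groups overlapped, but all 9 *Gpr180*KO livers were below the WT mean and 5 were below the lowest WT liver. The means were 53.8 ± 9.73 and 40.7 ± 7.90 FPKM (SD, n = 9 each), a log2 difference of -0.41 (SE 0.13). The limma adjusted p was 0.0676, and 0.0155 with the block. A two-sided exact permutation test of this gene alone over the 48620 ways to divide the livers gave p = 0.00621, which is not adjusted for the number of genes. After median-of-ratios scaling the log2 difference was -0.25 (SE 0.10, limma adjusted p = 0.169). The difference was much the same in both forms of title, -0.40 in the first and -0.41 in the second.

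*Keap1* was the least variable gene of the 9 among WT livers, with a coefficient of variation of 6.34%. It had 14.1, 16.1 and 17.5 FPKM as lowest, median and highest value in WT and 13, 15.1 and 17.4 FPKM in *Gpr180*KO livers. The groups overlapped over nearly their whole range. The log2 difference was -0.08 (95% interval -0.23 to 0.07, limma adjusted p = 0.505), and it turned to 0.07 (-0.08 to 0.22) after median-of-ratios scaling. The annotation places an exon of the gene model *Gm16754* over *Keap1* on the other strand, so part of the *Keap1* reads could belong to that model.

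The ratio of *Nfe2l2* to *Keap1* within a library does not depend on the scaling between libraries. It was 3.34 ± 0.55 in WT and 2.69 ± 0.55 in *Gpr180*KO livers (SD, n = 9 each), and 3 of 9 *Gpr180*KO livers were below the lowest WT ratio of 2.53. The log2 difference of the ratio was -0.33 (two-sided exact permutation p = 0.0237, 0.0476 without the liver KOhfd51). Within the forms of title it was -0.38 in the first (exact permutation p = 0.0571, 4 against 4 livers) and -0.29 in the second (exact permutation p = 0.23, 5 against 5). A lower ratio shows that the 2 transcripts changed unequally and not which of them changed. This ratio was chosen after the values of both genes were known.

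Among the targets, the genes with the most negative log2 differences between *Gpr180*KO and WT were *Srxn1* and *Nqo1*. *Srxn1* encodes sulfiredoxin, which repairs peroxiredoxins that peroxide has inactivated. In the first form of title it had 41.4, 46.4, 31.2 and 41.3 FPKM in the 4 WT livers and 30.3, 26.1, 27.2 and 27.7 FPKM in the 4 *Gpr180*KO livers. In the second form it had 25.5, 36.3, 23.5, 23.7 and 17.2 FPKM in the 5 WT livers and 16.9, 15.6, 14, 14.8 and 17.6 FPKM in the 5 *Gpr180*KO livers. The genotypes did not overlap in the first form, which was so for 11.5% of all genes tested with *Gpr180*KO below WT. In the second form a single WT liver (WThfd157, 17.2 FPKM) fell within the *Gpr180*KO range. Over all livers the means were 31.8 ± 10.02 FPKM in WT and 21.1 ± 6.51 FPKM in *Gpr180*KO (SD, n = 9 each). The log2 difference was -0.58 (SE 0.20, limma adjusted p = 0.0936), and with the block the same difference had an SE of 0.11 and a limma adjusted p of 0.00511. After median-of-ratios scaling with the block it was -0.43 (SE 0.10, limma adjusted p = 0.0162).

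*Nqo1* encodes a quinone reductase often used as a readout of NRF2. It ranged from 4.54 to 13.2 FPKM in WT (median 7.39) and from 3.64 to 7.31 FPKM in *Gpr180*KO livers (median 5.53). All 9 *Gpr180*KO livers were below the WT mean, and 5 WT livers were above every *Gpr180*KO liver. Means were 8.23 ± 2.84 and 5.46 ± 1.34 FPKM (SD, n = 9 each). The log2 difference was -0.55 (SE 0.19) with a limma adjusted p of 0.0922, or 0.0177 with the block. After median-of-ratios scaling it was -0.40 (SE 0.16, limma adjusted p = 0.187). With the block and this scaling together the limma adjusted p was 0.0657.

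**Figure D2:**
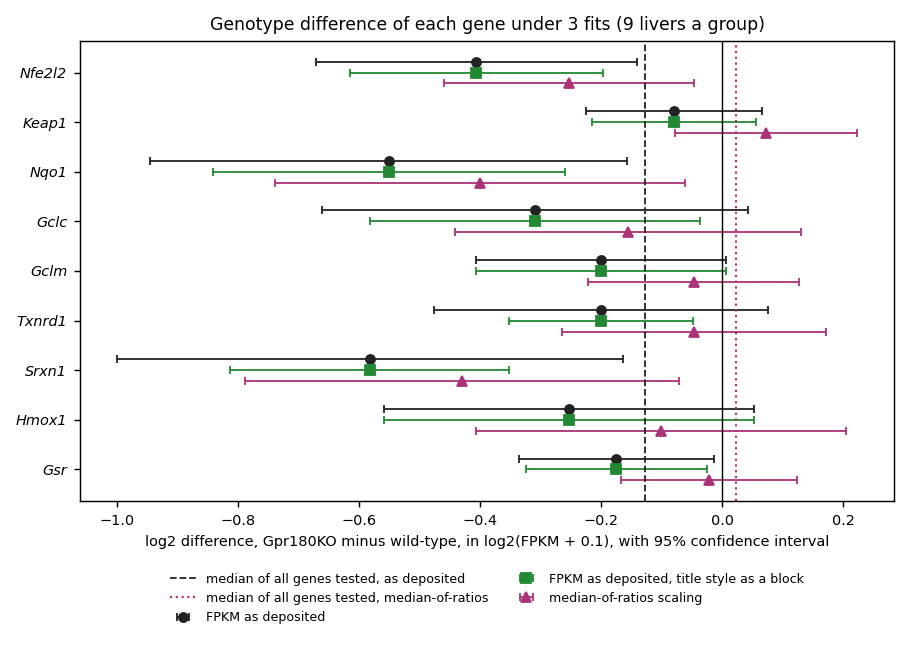
Log2 difference (x axis, *Gpr180*KO minus WT, in log2(FPKM + 0.1), with 95% confidence interval) of each gene for FPKM as deposited, for FPKM as deposited with the title form as a block, and after median-of-ratios scaling, 9 livers per genotype. Vertical lines mark the median of all 10835 genes tested, -0.13 as deposited and 0.02 after scaling. The intervals of *Nfe2l2*, *Nqo1* and *Srxn1* lie below 0 in all 3 fits, and that of *Keap1* crosses 0 in all 3.

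The subunits of glutamate-cysteine ligase had smaller differences. *Gclc* had 135.4, 177.2 and 217.5 FPKM as lowest, median and highest value in WT and 66.8, 151.4 and 205.2 FPKM in *Gpr180*KO livers. The groups overlapped, and 7 of 9 *Gpr180*KO livers were below the WT mean. The log2 difference was -0.31 (95% interval -0.66 to 0.04, limma adjusted p = 0.291). *Gclm* had 58.7, 64.2 and 74.9 FPKM in WT and 35.5, 58.9 and 65.6 FPKM in *Gpr180*KO livers, with a log2 difference of -0.20 (-0.41 to 0.01, limma adjusted p = 0.239). With the title form as a block the interval was -0.58 to -0.04 for *Gclc* (limma adjusted p = 0.134) and -0.41 to 0.01 for *Gclm* (limma adjusted p = 0.2). After median-of-ratios scaling the difference of *Gclc* was -0.16 and that of *Gclm* -0.05. The lowest liver for both was KOhfd51, without which the deposited values gave -0.17 for *Gclc* and -0.12 for *Gclm*. The annotation places an exon of the gene model *Gm6061* over *Gclm* on the same strand and *Gm17494* on the other, so part of its reads could belong to those. The *Gclc* to *Gclm* ratio was 2.76 ± 0.54 in WT and 2.55 ± 0.48 in *Gpr180*KO livers (SD, n = 9 each), a log2 difference of -0.11 with a two-sided exact permutation p of 0.408, and without KOhfd51 it was -0.06 (exact permutation p = 0.655). By title form the ratio was 3.25 in WT and 2.99 in *Gpr180*KO livers of the first form, and 2.36 and 2.20 in those of the second.

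The reductases that return thioredoxin and glutathione to their reduced state had smaller genotype differences than *Srxn1* and *Nqo1*. *Txnrd1*, the cytosolic thioredoxin reductase, had 33.7, 43.2 and 53.4 FPKM in WT and 25.1, 35.6 and 50.7 FPKM in *Gpr180*KO livers. *Gsr*, glutathione reductase, had 19.7, 24.4 and 25.4 FPKM in WT and 16.4, 20.8 and 23.9 FPKM in *Gpr180*KO livers. The log2 difference was -0.20 for *Txnrd1* (95% interval -0.48 to 0.08, limma adjusted p = 0.378) and -0.17 for *Gsr* (-0.34 to -0.01, limma adjusted p = 0.19). After median-of-ratios scaling these fell to -0.05 and -0.02, with intervals of -0.27 to 0.17 and -0.17 to 0.12. With the title form as a block and no scaling, the interval was -0.35 to -0.05 for *Txnrd1* (limma adjusted p = 0.0814). For *Gsr* it was -0.32 to -0.03 (limma adjusted p = 0.123). With block and scaling together the intervals were -0.18 to 0.08 and -0.16 to 0.12. Without KOhfd51 the deposited values gave -0.13 for *Txnrd1*, and by title form its difference was -0.10 in the first and -0.28 in the second.

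*Hmox1* encodes heme oxygenase 1, which degrades heme to biliverdin, carbon monoxide and iron and is expressed by Kupffer cells as well as by stressed hepatocytes. Of the 9 genes it was the one whose genotype difference varied most between the title forms. In the first form the 4 WT livers had 33.4, 33.0, 24.3 and 29.98 FPKM and the 4 *Gpr180*KO livers 18.1, 20.3, 17.6 and 19.3 FPKM, with no overlap. In the second form the 5 WT livers had 19.1, 22.9, 31.5, 19.7 and 15.4 FPKM and the 5 *Gpr180*KO livers 23.4, 16.2, 22.4, 25.4 and 25.5 FPKM, with overlap over most of the range. The log2 difference was -0.67 in the first form and 0.08 in the second. In the first form alone *Hmox1* (limma adjusted p = 0.0262) and *Srxn1* (limma adjusted p = 0.0418) were called lower, and so were 4.50% of all genes tested. The interaction of genotype and title form for *Hmox1* was 0.75 (SE 0.24) with an unadjusted limma p of 0.00673. It did not pass the test across all genes (limma adjusted p = 0.58), where no gene was called and 7.69% had an unadjusted p under 0.05. Over all 18 livers the *Hmox1* means were 25.5 ± 6.70 FPKM in WT and 20.9 ± 3.43 in *Gpr180*KO (SD, n = 9 each), a log2 difference of -0.25 (limma adjusted p = 0.315).

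Some marker genes of other liver cells were also lower in *Gpr180*KO livers. For 12 macrophage and Kupffer cell markers the summed FPKM ranged from 220.1 to 556.2 in WT (median 444.9) and from 261.4 to 367.6 in *Gpr180*KO livers (median 297.4). By title form the median sums were 454.1 in WT and 335.3 in *Gpr180*KO livers of the first form, and 306.6 and 266.7 in those of the second. Of the 11 macrophage markers tested, 1 was called lower, *Cd68* (log2 difference -0.69, limma adjusted p = 0.0257), while 4.28% of all genes were. Of the 11, 8 had a log2 difference below 0 and 3 above it (6 and 5 after median-of-ratios scaling). The 3 above were the Kupffer cell markers *Clec4f*, *Timd4* and *Cd163*, at 0.16, 0.16 and 0.25. The Kupffer cell markers *Vsig4*, *Cd5l* and *Marco* were at -0.23, -0.20 and -0.06. None of these was called. Among 9 stellate cell and fibroblast markers 5 were called lower, with summed FPKM of 143.3 to 289.1 in WT and 80.9 to 146.3 in *Gpr180*KO livers. *Dcn* made up most of these sums, with means of 144.5 FPKM in WT and 89.73 in *Gpr180*KO livers. Both cholangiocyte markers that were tested, *Spp1* and *Sox9*, were called lower. *Sox9* was close to the filter, with means of 1.44 FPKM in WT and 0.86 in *Gpr180*KO livers. After median-of-ratios scaling *Spp1* was still called (limma adjusted p = 0.0161) and *Sox9* was not (limma adjusted p = 0.137). Sums over 6 genes were 40.8 to 226.6 in WT and 17.5 to 51.8 in *Gpr180*KO livers. These sums were nearly all *Spp1*, at 36.79 to 222.7 FPKM in WT and 14.87 to 47.7 in *Gpr180*KO livers. Of the 6 genes, 4 had a mean under 1 FPKM, so the sum says little of the list as a whole. None of 9 hepatocyte, 8 sinusoidal endothelial or 4 erythroid markers was called at the same threshold. Their summed FPKM lay between 17050 and 20000 in WT and 18750 and 31790 in *Gpr180*KO livers for hepatocytes, between 115.7 and 194.0 and between 106.9 and 168.7 for the endothelium, and between 654.9 and 1454 and between 674.3 and 1926 for the erythroid list. All 7 lymphocyte markers in the files had a mean under 1 FPKM. The 5 adipocyte markers summed to 1.60 to 46.7 FPKM in WT and 4.44 to 279.0 in *Gpr180*KO livers, the highest in KOhfd51. The single one tested, *Cfd*, made up most of these sums, at up to 46.66 FPKM in WT and 277.7 in *Gpr180*KO livers. It was not called. *Plin1* was at 0 in all livers, and *Adipoq* was at 0 in the *Gpr180*KO livers of the second form. In whole liver, fewer cells of a type and less RNA per cell cannot be told apart. The part of these cell types in the differences of the 9 genes was not tested.

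The title form itself went with larger differences in some of these genes than the genotype did. With genotype in the model, the log2 difference of the second form from the first was -0.75 for *Srxn1* (SE 0.11, limma adjusted p = 0.000326), -0.58 for *Nqo1* (SE 0.14, limma adjusted p = 0.0064), -0.49 for *Txnrd1* (SE 0.07, limma adjusted p = 0.000347), -0.49 for *Gclc* (SE 0.13, limma adjusted p = 0.012) and -0.36 for *Nfe2l2* (SE 0.10, limma adjusted p = 0.0167). *Gclm*, *Keap1*, *Hmox1* and *Gsr* were not called, with differences from -0.13 to -0.04. These are 5 of 9 genes called lower in the second form, and of all genes tested 19.1% were. *Txnrd1* separated the forms completely. Its 8 livers of the first form had 44.4 to 53.4 FPKM and its 10 livers of the second 25.1 to 43.2 FPKM, whatever the genotype, which was so for 2.03% of all genes. After median-of-ratios scaling *Srxn1* (-0.63), *Txnrd1* (-0.37), *Nqo1* (-0.47) and *Gclc* (-0.37) were still called lower, 4 of 9 genes against 7.94% of all genes. The comparison of title forms was made after it was seen that the block changed the calls, and what the forms stand for is not given in the sources used here.

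Within the first form, *Nfe2l2*, *Srxn1*, *Hmox1* and *Gsr* had every *Gpr180*KO liver below every WT liver, 4 of 9 genes, where the share of all genes was the 11.5% given above. Over both forms together no gene of the 9 had all *Gpr180*KO livers below all WT livers, as 0.175% of all genes tested did, and within the second form alone this held for 5.50% of all genes and for none of the 9. When each library was weighted by its own spread, *Nfe2l2*, *Nqo1*, *Srxn1* and *Hmox1* were called lower, 4 of 9 genes, with 10.7% of all genes.

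The wider pathway was read from 85 further genes in 7 lists, of which 80 passed the filter. Of these, 8 were called lower in *Gpr180*KO livers (10%, with 4.28% of all genes) and 0 higher, and their median log2 difference was -0.17. After median-of-ratios scaling 1 was called lower, *Ptgr1* (1.25%, with 1.36% of all genes). With the title form as a block 19 were (23.75%, with 9.52% of all genes). With both, 7 were (8.75%, with 3.06% of all genes). In the first form of title alone 15 were called lower (18.75%, with 4.50% of all genes). In the second form alone 0 were, and there no gene at all was called. When a library was left out, 0 (without W318HFD) to 13 (without WThfd157) were called lower, the latter 16.25% with 7.79% of all genes.

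Among 14 regulators and partners of NRF2, 1 was called lower. It was *Mafk*, a small MAF protein of the kind NRF2 pairs with, at 7.45 ± 1.59 FPKM in WT and 5.03 ± 1.18 in *Gpr180*KO livers (SD, n = 9 each; log2 difference -0.56, limma adjusted p = 0.0394). The most highly expressed genes of this list were *Sqstm1*, the autophagy receptor p62 that binds KEAP1, at 222.9 and 216.9 FPKM, and *Nfe2l1*, a relative of NRF2, at 41.9 and 36.2 FPKM in WT and *Gpr180*KO livers. Neither was called.

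Of the 6 genes that supply NADPH, on which thioredoxin reductase, glutathione reductase and NQO1 depend, all had a lower mean (5 of 6 after median-of-ratios scaling) and 1 was called. *Pgd*, phosphogluconate dehydrogenase of the pentose phosphate pathway, had 37.3 ± 7.87 FPKM in WT and 23.5 ± 6.21 in *Gpr180*KO livers (SD, n = 9 each; log2 difference -0.69, limma adjusted p = 0.0274). *Me1*, the cytosolic malic enzyme, had 182.5 ± 29.6 and 119.6 ± 46.5 FPKM and a log2 difference of -0.72, with a wider spread and a limma adjusted p of 0.0737. *Idh1* had 231.4 and 214.3 FPKM. The median log2 difference of the list was -0.45, and -0.30 after median-of-ratios scaling, where none was called.

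The list of other detoxification genes linked to NRF2 had 4 of 24 genes called lower and 0 higher. *Gsta1*, a glutathione S-transferase, had 3.60 to 54.6 FPKM in WT and 3.44 to 15.8 FPKM in *Gpr180*KO livers, a log2 difference of -1.54 (SE 0.43, limma adjusted p = 0.0446). Alpha class glutathione S-transferases have close paralogs, so its reads may be shared with them. *Ces1g*, a carboxylesterase, had a log2 difference of -0.75 (limma adjusted p = 0.0226), *Ugdh*, which makes the sugar donor of glucuronidation, -0.56 (limma adjusted p = 0.0366), and *Ptgr1*, prostaglandin reductase, -0.88 at only 1.51 FPKM in WT (limma adjusted p = 0.0227). The abundant members *Gstm1* (1434 FPKM in WT and 998.7 in *Gpr180*KO livers) and *Gsta3* (1290 and 1244 FPKM) were not called.

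In the glutathione list 1 of 8 genes was called lower, *Gpx3*, the secreted glutathione peroxidase (4.85 ± 1.39 FPKM in WT and 2.93 ± 0.89 in *Gpr180*KO, SD, n = 9 each; log2 difference -0.71, limma adjusted p = 0.0373). *Gpx1* had 1432 and 1410 FPKM and *Gpx4* 480.5 and 353.2 FPKM in WT and *Gpr180*KO livers. None of 12 thioredoxin and peroxiredoxin genes was called, and 8 of them had a higher mean in *Gpr180*KO livers (5 of 12 when each library was scaled to the same FPKM sum, 3 of 12 with weights per library and 2 of 12 in the first form of title alone), among them *Prdx1* (693.5 and 717.4 FPKM) and *Prdx5* (218.0 and 224.4 FPKM). None of 7 heme and iron genes was called, with *Ftl1* and *Fth1*, the ferritin chains, at 3985 and 1849 FPKM in WT and 3686 and 1594 FPKM in *Gpr180*KO livers. For antioxidant genes not tied to NRF2, taken as a reference list, 1 of 9 was called, the selenium carrier *Sepp1* (log2 difference -0.33, limma adjusted p = 0.0394). *Cat*, catalase, had 1313 and 1374 FPKM.

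**Figure D3:**
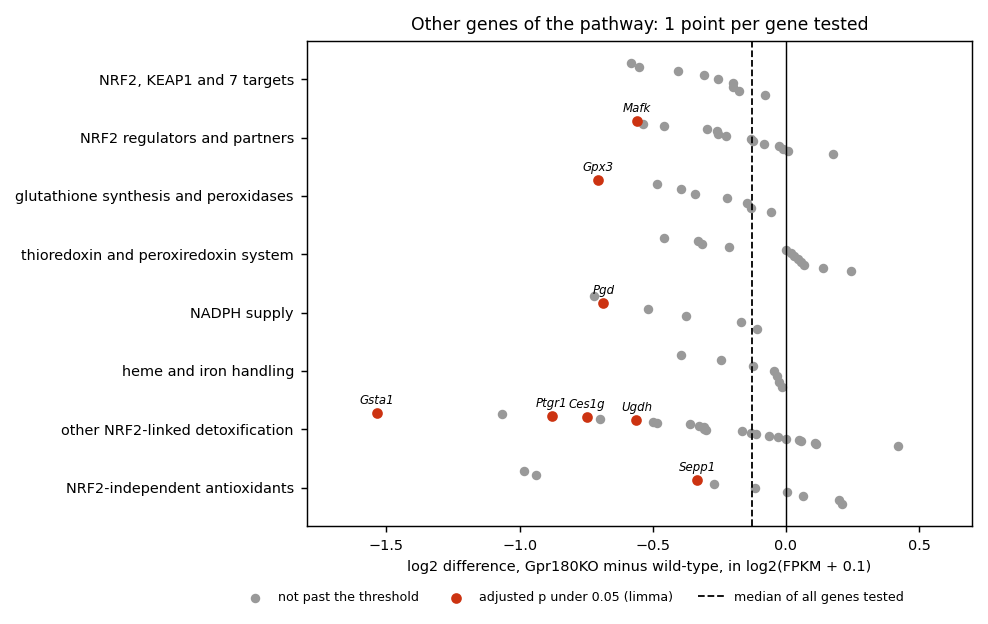
Log2 difference (x axis, *Gpr180*KO minus WT, in log2(FPKM + 0.1)) of *Nfe2l2*, *Keap1* and the 7 targets and of 80 other pathway genes in 7 lists (rows), 1 point per gene, with the 8 genes past the threshold in red and the median of all genes tested (-0.13) as a dashed line. All 6 NADPH genes lie below 0, and 8 of 12 thioredoxin and peroxiredoxin genes lie above it (5 of 12 when libraries were scaled to the same sum, 3 of 12 with weights per library and 2 of 12 in the first form of title alone, and 5 of 6 NADPH genes below it after median-of-ratios scaling).

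Whether the 9 genes vary together from liver to liver was examined after the mean of each combination of genotype and title form was removed, so that neither enters the correlation. The permutations exchanged the remaining values freely between livers, although removing the means ties the values of a combination to each other. The p-values of these correlations are therefore approximate and may be too small. Of 36 pairs, 32 had a positive Pearson r (median 0.36) and 4 passed a permutation test after Benjamini-Hochberg adjustment over the pairs. After median-of-ratios scaling 25 were positive (median 0.14) and 3 passed. With 75th percentile scaling 26 were positive and 5 passed, and with TPM scaling 36 and 18. Among WT livers 36 were positive, and among *Gpr180*KO livers 23. Library-wide shifts move all genes, and the share of positive pairs among all genes was not computed. In the deposited values the pair with the highest r was *Gclc* and *Gclm*, the subunits of the same enzyme, with r = 0.89 (adjusted permutation p = 0.00144) and Spearman's rho = 0.75 (adjusted permutation p = 0.0202) over 18 livers. Without the 2 livers farthest from the median of *Gclc*, r was 0.69, and without KOhfd51 it was 0.74. It was 0.62 among WT livers (n = 9, permutation p over all orders = 0.073, adjusted 0.239) and 0.95 among *Gpr180*KO livers (n = 9, permutation p over all orders = 0.000827, adjusted 0.0298). After median-of-ratios scaling r over 18 livers was 0.82 (adjusted permutation p = 0.00864), 0.22 among WT livers and 0.92 among *Gpr180*KO livers. Spearman's rho was then 0.57 and did not pass (adjusted permutation p = 0.211). The scaled r was 0.60 without the 2 farthest livers and 0.58 without KOhfd51.

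The other 3 pairs were *Nfe2l2* and *Gclc* (r = 0.70, rho = 0.61), *Gclc* and *Txnrd1* (r = 0.75, rho = 0.53) and *Nfe2l2* and *Gclm* (r = 0.68, rho = 0.49). The adjusted permutation p of r was 0.0192, 0.0192 and 0.0293, and that of rho was 0.0548, 0.0873 and 0.112. Without the 2 farthest livers their r fell to 0.36, 0.43 and 0.21, and without KOhfd51 alone to 0.54, 0.50 and 0.50. Leaving out the farthest livers also narrows the range, so the fall cannot show how far the relations rest on them. Among WT livers r was 0.49, 0.56 and 0.30 and among *Gpr180*KO livers 0.80, 0.84 and 0.83. Within neither genotype was any of the 3 pairs called. After median-of-ratios scaling none of the 3 was called, and *Keap1* was called in a negative relation with *Gclc* and with *Gclm* (r = -0.81 for both, adjusted permutation p = 0.00864 each), where Spearman's rho was -0.57 and -0.54 and did not pass (adjusted permutation p = 0.211 for both). Without the 2 farthest livers these r of *Keap1* were -0.56 and -0.51, and without KOhfd51 alone they were -0.53 for both. Among WT livers they were -0.45 and -0.43 (adjusted permutation p = 0.941 for both). Among *Gpr180*KO livers they were -0.88 and -0.87 (adjusted permutation p = 0.0666 for both). *Srxn1* and *Nqo1*, the targets with the most negative genotype differences, had r = 0.55 (adjusted permutation p = 0.054) and rho = 0.36 (adjusted permutation p = 0.243). Without the 2 farthest livers r was 0.18, among WT livers it was 0.76 and among *Gpr180*KO livers -0.02, and median-of-ratios scaling gave 0.39 over 18 livers.

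**Figure D4:**
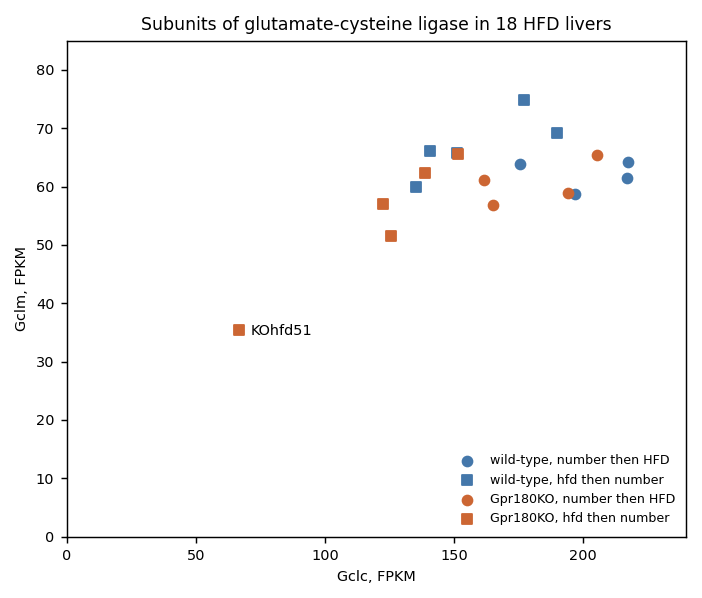
*Gclm* (y axis, FPKM) against *Gclc* (x axis, FPKM) in the 18 HFD livers, coloured by genotype, with circles for the first and squares for the second form of title. The *Gpr180*KO liver KOhfd51 lies apart at 66.8 FPKM of *Gclc* and 35.5 FPKM of *Gclm*, and livers of the first form lie further to the right at a similar height.

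The genes most like each of the 9 among the other 10834 genes tested were listed by Pearson's r, as a description. For this the values after median-of-ratios scaling were used, with the same means removed. They were *Bcl9* (0.81) and *Plekhg1* (0.80) for *Nfe2l2*, *Nme3* and *AI462493* (0.94 each) for *Keap1*, *Slc39a4* and *Slc29a3* (0.82 each) for *Nqo1*, and *Ly6d* (0.91) and *Tpm1* (0.91) for *Srxn1*. For *Gclc* they were *Rc3h2* and *Msn*, for *Gclm* *N4bp1* and *Chd1* and for *Txnrd1* *Wdr3* and *Ippk*, with r from 0.90 to 0.92. *Hmox1* was nearest to *Rpf2* and *Hist1h2bj* (0.86 each), and *Gsr* to *2700089E24Rik* (0.87) and *Ube2k* (0.84). None of the 9 genes was among the nearest 2 of another.

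In depth the libraries differed by more than a factor of 2, as read from the steps between low FPKM values. Relative to the deepest library, WT libraries had 60.8 to 100% of its depth and *Gpr180*KO libraries 44.3 to 93.5%. Counts were not in the files, so no counting interval can be given for a value. KOhfd51 had the highest FPKM sum, 718746, and the median sum over the 18 libraries was 570149.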

How the data were processed

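Poly(A) RNA libraries of 18 HFD mouse livers were sequenced by the authors as single reads and aligned to mm10 with the TopHat Alignment application (Illumina). The authors deposited the FPKM values it put out, per library. The annotation behind them is not given in the sources used here. Deposited confidence bounds were not used, since 54 of 162 values of the 9 genes lay outside their own bounds. Entries sharing a symbol were summed, and 24 symbols with a failed value were dropped. Genes with a mean of at least 1 FPKM were compared with limma 3.58.1 (R 4.3.3, lmFit, eBayes with trend) on log2(FPKM + 0.1), a scale that understates changes of low genes, with Benjamini-Hochberg adjustment. Exact permutation tests and correlations (100000 permutations) were computed in Python 3.11.15 with numpy 2.4.6. The limma step was tested on simulated data. Group came from the genotype label. Nothing in the labels says how livers were allotted, so p-values measure the spread between these samples. Gene positions are from GENCODE M21 and start-site windows from RefSeq, both of GRCm38. For *Adgre1*, *Hbb-bs* and *Selenop* the older symbols in the files were used.

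The genes and lists were chosen with earlier results of these data known. Named were all 9 genes, wider pathway genes past the threshold, the 2 with the highest mean per list, the 2 nearest genes by correlation and *Gpr180*. Alternatives were pseudocounts, filters, scalings, title form, each library left out, other moderation and library weights. Normal-diet livers were not analysed here.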

Additional observations from a re-analysis of the deposited data

Results flagged for a closer look

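In *Gpr180*KO livers the lowest value of *Gclc* (KOhfd51, 66.8 FPKM) lay far from the other 8, at a gap of 0.54 of the whole range, above Dixon's critical value for 9 samples. The lowest value of *Gclm* (35.5 FPKM) came from the same liver, with a gap of 0.607 of the range. Both genes were examined in both genotypes along with the other 7, 18 groups in all, and chance flags about 1 in 20 groups. The same library had the highest FPKM sum and the lowest median-of-ratios factor (0.8195). It also had the highest hepatocyte marker sum (31790 FPKM) and the highest adipocyte marker sum (279.0 FPKM). The latter was nearly all *Cfd* (277.7 FPKM), with *Adipoq*, *Plin1* and *Lep* at 0. The part of these library features in the low *Gclc* and *Gclm* values was not tested.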

How the results depend on the processing

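The count of 0 of 9 genes called lower became 3 with the title form as a block, 2 in the first form alone (*Srxn1* and *Hmox1*), 4 with weights per library, 1 with median-of-ratios scaling and the block, and 0 to 3 when a library was left out (3 without WThfd157). No setting called any of the 9 higher. *Keap1* reversed to 0.0727 after median-of-ratios scaling with or without the block and to 0.0203 when KOhfd51 was left out as well, a setting added after seeing the data in which *Gclm* reversed to 0.00807. *Hmox1* reversed to 0.0791 in the second form alone. All genes called numbered 513, and 837 and 238 at minimums of 0.1 and 5 FPKM, 293 with median-of-ratios and 254 with 75th percentile scaling, 1153 with the block, 0 in the second form alone, 1331 with weights, and 132 (without WThfd133) to 922 (without WThfd157) when a library was left out.

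Wider pathway genes called lower went from 8 to 5 at a minimum of 5 FPKM or none, 1 with median-of-ratios and 2 with 75th percentile scaling, 19 with the block, 15 and 0 in the first and second form, 16 with weights, and 0 (without W318HFD) to 13 (without WThfd157) without a library. Of all genes, 1.36% were called lower with median-of-ratios and 1.74% with 75th percentile scaling. With the block the share was 9.52%, in the first form 4.50% and with weights 10.7%. Called higher was 1 in place of 0 in the first form and with median-of-ratios scaling without KOhfd51. An unadjusted exact permutation p under 0.05 was found for 5 of the 9 genes (*Nfe2l2*, *Nqo1*, *Gclm*, *Srxn1*, *Gsr*), and for 3 with either scaling. For comparison, limma's unadjusted p was under 0.05 for 4 of the 9 and for 2403 of all 10835 genes. Correlated pairs numbered 4, 18 with TPM, 1 in WT and 2 in *Gpr180*KO livers. *Gpr180* was not called in the second form alone (-1.94, limma adjusted p = 0.0655). The cause of these shifts was not tested. The labels give no pairing, and 2 title numbers occur in both genotypes (W319HFD and KO319HFD, W320HFD and KO320HFD). With the number as a replicate block in these 4 livers, a fit chosen after seeing the data, 7 genes were called, 0 of the 9 and 0 of the wider pathway, *Keap1* was at 0.034 and *Gpr180* at -1.93, not called. Same-numbered livers did not deviate together across genes (r = -0.0776 and -0.162).

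Depth is known only in relative terms, so the precision of low values such as *Nqo1* and *Ptgr1* cannot be stated. Neither protein nor NRF2 binding was measured, and what the title forms stand for cannot be told from the labels.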
